A study of Mus musculus with 6 samples.

Results

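The 10 transcripts described here encode 4 inflammatory cytokines (*Tnf*, *Il1a*, *Il1b* and *Il6*), 3 CC chemokines (*Ccl2*, *Ccl3* and *Ccl4*) and 3 proteins of the NF-kB feedback loop (*Nfkbia*, *Nfkbiz* and *Tnfaip3*). They were chosen by gene symbol, not by a measured value, and are 10 of the 31053 genes in the count table. Bulk RNA sequencing of mouse cerebellum compared WT with KIKO mice, and 2 WT libraries (replicates 1 and 2) and 3 KIKO libraries (replicates 1, 2 and 3) were analysed. KIKO (knock-in knock-out) mice, a model of Friedreich ataxia, carry 1 knocked-in and 1 knocked-out allele of the same gene in every cell, and the WT controls were C57BL/6 littermates without either. The methods of the study describe CD45+/CD11b+ cells taken from the cerebellum of mice aged 6 mo by magnetic sorting, with females and males in use, whereas the sample labels name the tissue and the genotype and give no sorting, age or sex. No treatment is labelled in either genotype, and whether an animal or a pool stands behind each library is not given.

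In microglia, the resident macrophages of the brain, ligands such as TNF and IL-1 act through their receptors on the IkB kinase complex, which marks IkBalpha for destruction and frees NF-kB dimers to enter the nucleus. NF-kB then switches on cytokine and chemokine genes together with its own inhibitors. *Nfkbia* encodes IkBalpha, *Tnfaip3* encodes the ubiquitin-editing enzyme A20, and *Nfkbiz* encodes IkBzeta, a nuclear cofactor for secondary response genes such as *Il6*. Many of these messages are short-lived because AU-rich elements in their 3′ UTR recruit decay factors.

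The DNA before the transcription start is shown for the members in which a search found the NF-kB consensus, because NF-kB is the factor at the centre of the loop described above. Sequences are RefSeq windows on GRCm38.p6 with 250 bases before the start, 5′ to 3′ on the gene's strand, and capitals mark the consensus on either strand. They lie at chr12:55492648-55492897 (minus strand) for *Nfkbia*, chr10:19015411-19015660 (minus strand) for *Tnfaip3* and chr5:30012864-30013113 (plus strand) for *Il6*.
Nfkbia: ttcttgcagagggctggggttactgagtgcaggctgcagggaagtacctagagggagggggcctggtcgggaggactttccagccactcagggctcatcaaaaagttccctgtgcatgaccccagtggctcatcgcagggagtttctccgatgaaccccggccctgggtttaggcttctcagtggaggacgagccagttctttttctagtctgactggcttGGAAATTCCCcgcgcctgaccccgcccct
Tnfaip3: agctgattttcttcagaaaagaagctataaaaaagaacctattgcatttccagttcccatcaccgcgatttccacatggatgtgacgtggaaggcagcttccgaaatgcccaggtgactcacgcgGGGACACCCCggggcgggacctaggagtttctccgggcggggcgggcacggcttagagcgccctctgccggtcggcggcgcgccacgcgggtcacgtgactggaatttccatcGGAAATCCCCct
Il6: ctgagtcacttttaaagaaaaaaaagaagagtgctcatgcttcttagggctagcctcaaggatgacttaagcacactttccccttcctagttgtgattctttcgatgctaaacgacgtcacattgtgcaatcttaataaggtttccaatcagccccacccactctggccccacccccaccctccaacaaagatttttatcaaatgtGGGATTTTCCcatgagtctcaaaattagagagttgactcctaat

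The site starts 29 bases before the start of *Nfkbia* and reads GGAAATTCCC on the gene's strand. *Tnfaip3* holds 2 such sites, GGGACACCCC at 125 and GGAAATCCCC at 12 bases before its start, and *Il6* holds GGGATTTTCC at 44 bases. Windows were found for 7 of the 10 members, with 8 windows because *Tnfaip3* has a pair of starts, and *Ccl2*, *Ccl4* and *Nfkbiz* had none. Over the 300-base windows that also take in 50 bases after the start, 8.46% of 32851 windows held the consensus on either strand. The AP-1 motif TGANTCA was found for *Il1a*, *Il6* and *Tnfaip3* and in 7.81% of all windows, and the letters TATAAA for *Il1a*, *Il1b*, *Tnf*, *Nfkbia* and *Tnfaip3* and in 13.6%. TATAAA lay 32, 31 and 29 bases before the start of *Il1a*, *Il1b* and *Tnf*, and 225 bases before that of *Tnfaip3*. For *Nfkbia* it was on the other strand, 19 bases after the start. None of the NF-kB matches overlapped an AP-1 or a TATAAA match. A match of letters is no measure of binding, and the counts do not show which start was used.

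The 3′ UTR was searched for the AU-rich pentamer ATTTA, which mRNA decay factors such as tristetraprolin recognise in its longer forms. The richest 24 bases of 3 members are shown to set a dense element beside sparser ones, 5′ to 3′ on the gene's strand with ATTTA in capitals. They lie at chr17:35199677-35199700 for *Tnf*, chr2:129364803-129364826 for *Il1b* and chr11:83648073-83648096 for *Ccl3*, each on the minus strand of GRCm38.
Tnf: ttATTTATTTAttATTTATTTAtt
Il1b: ctATTTATTTAtgtATTTAttgat
Ccl3: ttATTTAATTTAatcctattggtt

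Every member held the pentamer at least 1 time in its longest annotated 3′ UTR, with 8 in *Tnf*, 10 in *Il6*, 5 in *Ccl3* and in *Tnfaip3*, 4 in *Il1b* and in *Nfkbiz*, 3 in *Il1a*, 2 in *Ccl4* and in *Nfkbia*, and 1 in *Ccl2*. The median was 4.96 per kilobase in the 10 members and 1.36 in 10621 other protein-coding genes tested. The nonamer TTATTTATT, which contains the pentamer, was present in *Tnf*, *Nfkbia* and *Tnfaip3*, as it was in 9.02% of the other genes.

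The members lie on 7 chromosomes, and some are neighbours. On chromosome 11 of GRCm38, *Ccl3* (83647844 to 83649355, minus strand) and *Ccl4* (83662584 to 83664683, plus strand) are 13.2 kilobases apart with 0 protein-coding genes between them. *Ccl2* (82035571 to 82037453, plus strand) lies 1610.4 kilobases from *Ccl3*. On chromosome 2, *Il1b* (129364570 to 129371139) and *Il1a* (129299610 to 129309972) are 54.6 kilobases apart on the minus strand. Exons of *Il1b* overlap the antisense gene *Il1bos*, and those of *Il1a* overlap *Gm14023* on the other strand. As the strand setting of the counting is not stated, reads of these pairs cannot be told apart. The other members are *Tnf* on chromosome 17 (35199381 to 35202007), *Nfkbia* on chromosome 12 (55489410 to 55492647), *Nfkbiz* on chromosome 16 (55811375 to 55838899) and *Tnfaip3* on chromosome 10 (19000910 to 19015657), all minus strand, and *Il6* on chromosome 5 (30013114 to 30019981), plus strand.

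The libraries held 1013107 to 1351339 counts, so that 3 counts, taken as the smallest signal, equalled 2.28 to 3.04 normalized CPM (CPM, counts scaled to a common library size by TMM). Intervals from counts cover counting error only, as reads of amplified molecules are not independent. KIKO replicate 2 stood apart from the other libraries: across 10889 genes, its log2 CPM correlated with theirs with r from 0.636 to 0.711, whereas the other 4 libraries correlated with each other with r from 0.868 to 0.919. The biological coefficient of variation was 0.468 with it and 0.238 without it, and the members and the signs of the pathway lists are therefore given both ways. Of 15 microglia markers, none was at 0 in any library, and their summed level was 5751 and 7241 normalized CPM in WT and 5013, 12720 and 5798 in KIKO replicates 1, 2 and 3. Markers of other cerebellar cells were present too, such as 6 of the choroid plexus, which summed to 7879 to 15610, and 6 of oligodendrocytes, which summed to 4540 to 18860. T cell markers summed to at most 3.04, with *Cd3d*, *Cd3e* and *Cd8a* at 0 in every library, and those of monocytes and neutrophils to 16.9 and 33.4 in WT and 99.4, 32.5 and 36.5 in KIKO, with *Ly6c2*, *Ly6g*, *Plac8* and *Chil3* at 0.

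The first question was whether the transcripts of this inflammatory loop differed between KIKO and WT cerebellum. None of the 10 met the thresholds of the study, a log2 fold change above 0.75 in size with a p under 0.05, read here as unadjusted, which 1.2% of the 10889 genes tested met. The p of edgeR's quasi-likelihood test, before adjustment, was under 0.05 for 0 of the 10, and the same held for DESeq2's Wald test and for limma. None had an adjusted p under 0.05 (Benjamini-Hochberg), as was true of all genes tested (0%), and the adjusted p was 1 for each of the 10. The fold change was positive for 7 and negative for 3 members, with a median of 0.32 on the log2 scale, compared with 0.0215 over all genes tested. All 10 passed the filter on low counts. In these bulk samples, fewer cells of a type and less RNA per cell cannot be told apart.

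Among the cytokines, *Tnf*, the ligand that starts the cascade, was the steadiest transcript of the set. It had 88.7 and 84.2 normalized CPM in WT and 102.5, 100.5 and 89.3 in KIKO replicates 1, 2 and 3. All KIKO values lay above both WT values, a pattern found in 8.2% of genes tested, but the lowest of them exceeded the higher WT value by less than the counting error. WT averaged 86.4 ± 3.16 (SD, n = 2) and KIKO 97.4 ± 7.11 (SD, n = 3). The log2 fold change was 0.17 (standard error 0.34, 95% interval −0.61 to 0.96). Its variance within genotypes was 0.412 times that of counting alone, so the libraries differed no more than repeated counting of 1 sample would. KIKO replicate 2, which stood apart over all genes, was at 1.1 times the mean of the other 4 libraries for *Tnf*.

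*Il1a* and *Il1b* encode the paired IL-1 ligands of 1 receptor, IL-1alpha being active as made and IL-1beta needing cleavage by caspase-1. *Il1a* had 65.7 and 70.5 normalized CPM in WT and 63.1, 58.0 and 35.5 in KIKO. The KIKO values all lay below WT, as they did for 8.51% of genes tested, with replicate 3 the lowest. *Il1b* had 194 and 241 normalized CPM in WT and 174, 471 and 119 in KIKO. Here KIKO replicates 1 and 3 were below both WT libraries and replicate 2 was above them. The means were 68.1 ± 3.39 (SD, n = 2) and 52.2 ± 14.7 (SD, n = 3) for *Il1a*, whose log2 fold change was −0.38 (standard error 0.41). For *Il1b* they were 218 ± 33.2 and 254 ± 189, a log2 fold change of 0.22 (standard error 0.58). Within a library, the ratio of *Il1b* to *Il1a* CPM, not corrected for length, was 2.95 and 3.42 in WT, 2.75 and 3.34 in KIKO replicates 1 and 3, and 8.12 in KIKO replicate 2. The pair thus kept a similar proportion in 4 libraries and not in the fifth.

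*Il6* encodes a cytokine of the secondary response that acts through the gp130 receptor. It had 10 and 11 counts in WT and 6, 3 and 1 counts in KIKO, which equalled 9.96 and 8.34 normalized CPM in WT and 4.73, 2.32 and 1.01 in KIKO. All 3 KIKO libraries were below both WT libraries, as they were for 8.51% of genes tested, and 2 of them were at or under 3 counts. The log2 fold change of −1.70 was the largest in size of the set and had the widest interval, −3.96 to 0.57, with a p of 0.123 in edgeR's quasi-likelihood test before adjustment. Pooled over libraries and scaled to depth, the KIKO level was 0.312 times that of WT, with a 95% interval of 0.131 to 0.692 that covers the 31 counts and leaves out the spread between replicates. *Il6* and *Il1a*, with *Tnf*, were the members not highest in KIKO replicate 2, where *Il6* was at 0.386 times the mean of the other libraries.

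The 3 chemokines attract leukocytes, *Ccl2* mainly monocytes through the receptor CCR2. *Ccl2* had 38.9 and 33.4 normalized CPM in WT and 31.6, 135 and 22.3 in KIKO. *Ccl3* had 305 and 261 in WT and 310, 736 and 276 in KIKO. *Ccl4* had 264 and 253 in WT and 234, 660 and 140 in KIKO. In each of the 3, KIKO replicate 2 was the highest library, at 4.29, 2.56 and 2.96 times the mean of the other 4, and for *Ccl2* and *Ccl4* the other KIKO libraries were below both WT libraries. The means were 36.1 ± 3.87 (SD, n = 2) and 63.0 ± 62.7 (SD, n = 3) normalized CPM for *Ccl2*, 283 ± 31.0 and 441 ± 257 for *Ccl3*, and 259 ± 7.53 and 345 ± 277 for *Ccl4*. Their log2 fold changes were 0.81 (standard error 0.76), 0.64 (standard error 0.51) and 0.42 (standard error 0.62), with p of 0.314, 0.241 and 0.522 in edgeR's quasi-likelihood test.

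*Ccl3* and *Ccl4*, neighbours on chromosome 11, did not keep a fixed proportion. The ratio of *Ccl3* to *Ccl4* CPM within a library was 1.15 and 1.03 in WT and 1.32, 1.12 and 1.97 in KIKO replicates 1, 2 and 3. In KIKO replicate 2, where both transcripts were highest, the ratio lay between those of the WT libraries, whereas in KIKO replicate 3 *Ccl4* was lowest and *Ccl3* was not.

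The feedback genes were then examined to see whether they followed the ligands. *Nfkbia*, the inhibitor that NF-kB rebuilds first, had 924 and 1295 normalized CPM in WT and 825, 1320 and 816 in KIKO. KIKO replicate 2 was here close to WT replicate 2, and the 2 other KIKO libraries were below both WT libraries. *Nfkbiz* had 148 and 192 in WT and 191, 409 and 163 in KIKO, so that apart from replicate 2 the genotypes overlapped. *Tnfaip3* had 49.8 and 60.7 in WT and 39.4, 188 and 22.3 in KIKO, with replicate 2 at 4.36 times the mean of the other 4 and the remaining KIKO libraries below WT. The means were 1110 ± 262 (SD, n = 2) and 987 ± 288 (SD, n = 3) for *Nfkbia*, 170 ± 30.7 and 254 ± 135 for *Nfkbiz*, and 55.2 ± 7.69 and 83.2 ± 91.0 for *Tnfaip3*. The log2 fold changes were −0.17 (standard error 0.43), 0.58 (standard error 0.48) and 0.59 (standard error 0.81), with p of 0.701, 0.262 and 0.484 in edgeR's quasi-likelihood test.

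*Nfkbia* and *Tnfaip3*, both of which hold the consensus shown above, differed in range. *Nfkbia* was at 1.37 times the mean of the other libraries in KIKO replicate 2, compared with 4.36 times for *Tnfaip3*. The ratio of *Nfkbia* to *Tnfaip3* CPM was 18.6 and 21.4 in WT, 20.9 in KIKO replicate 1, 7.03 in replicate 2 and 36.5 in replicate 3. As *Tnfaip3*, the denominator, had the wider range, its levels set the lowest and the highest of these ratios. The 36.5 of KIKO replicate 3 rests on 22 *Tnfaip3* counts.

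**Figure D1:**
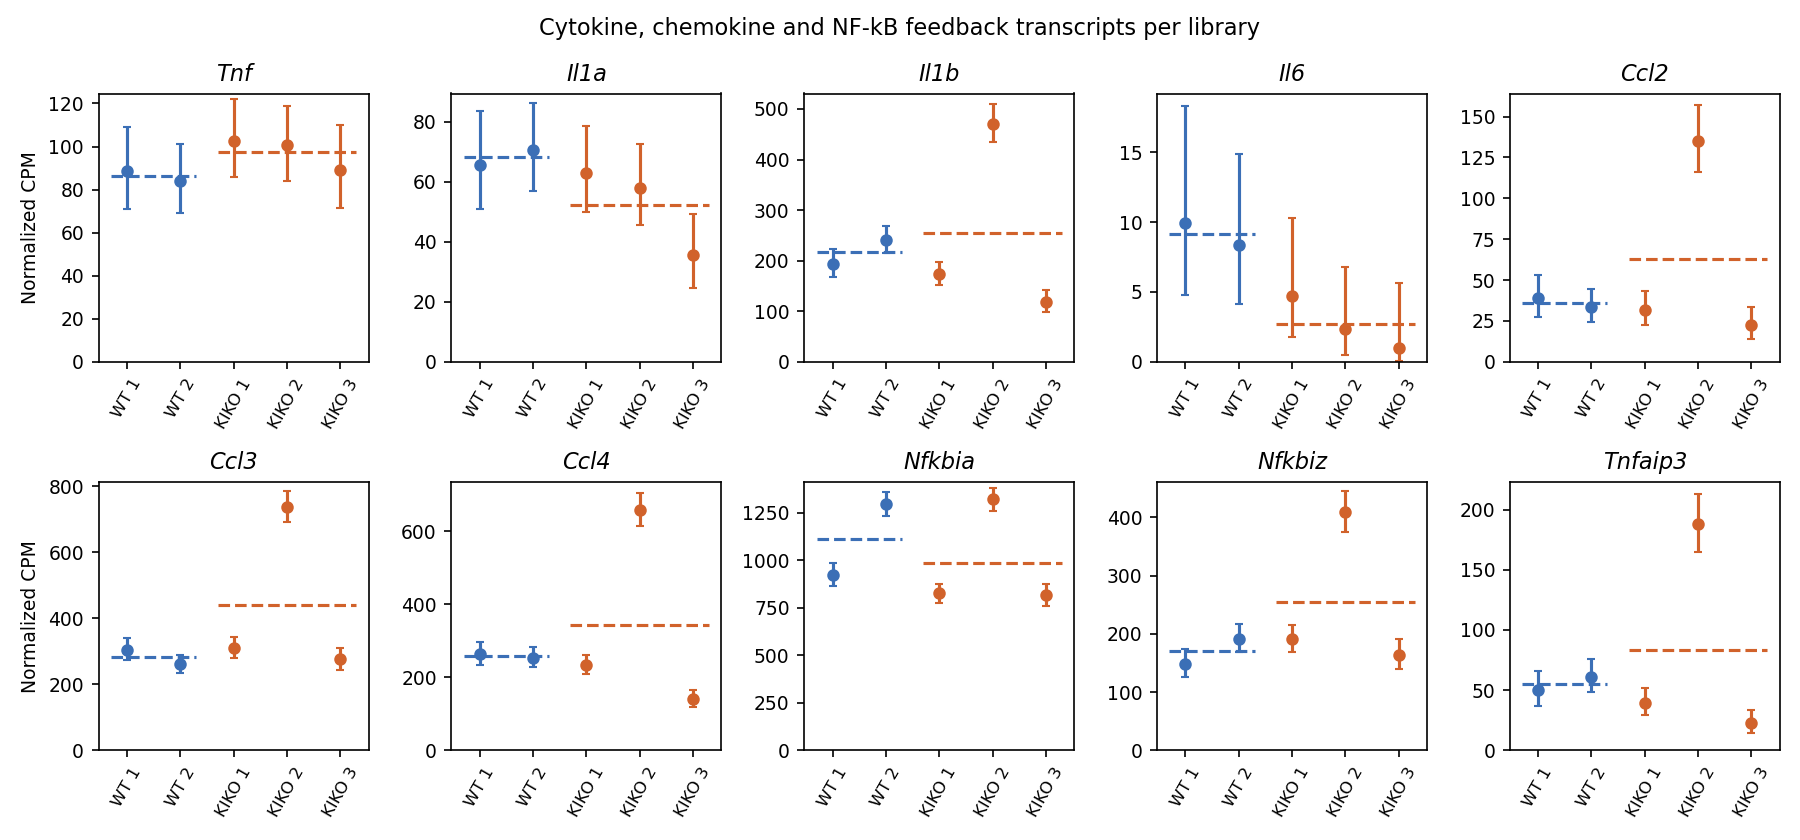
Normalized CPM (y axis, linear, a separate range in each panel) of the 10 transcripts in each library (x axis, 2 WT in blue and 3 KIKO in orange). Bars are 95% Poisson intervals of the count, which cover counting error only, and dashed lines are group means. KIKO replicate 2 is the highest library in 7 of the 10 panels, whereas *Tnf* is level and *Il6* is lowest in KIKO replicate 3.

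**Figure D2:**
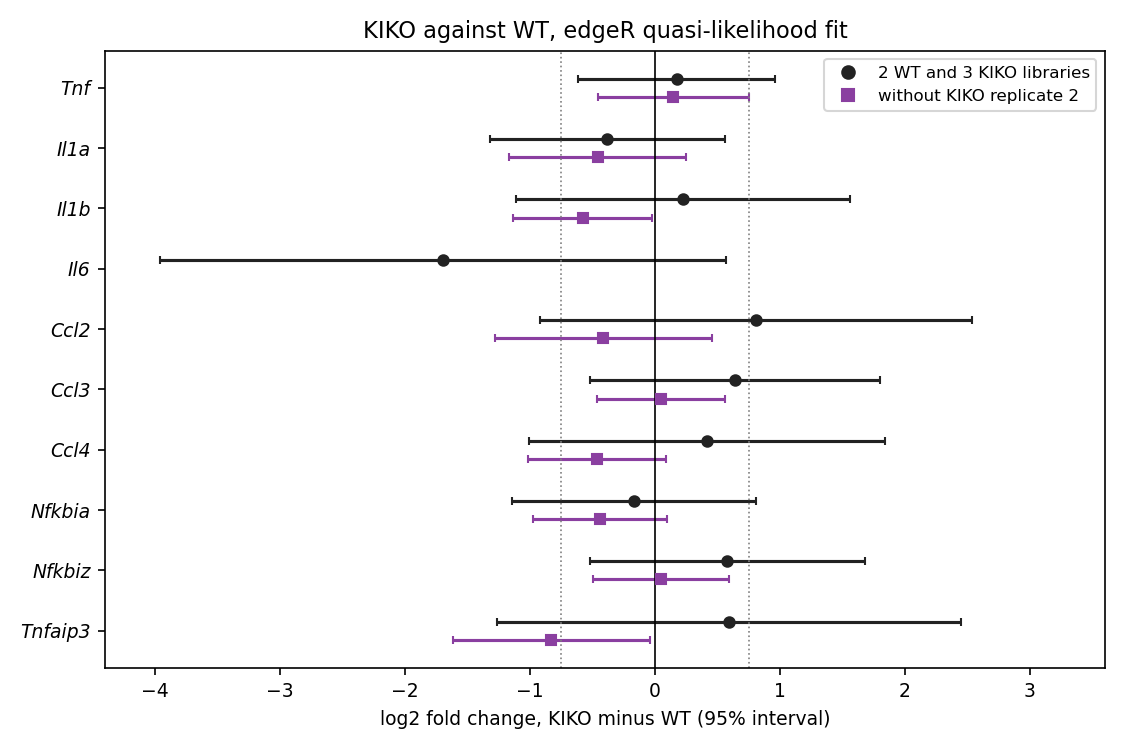
Log2 fold change of KIKO minus WT (x axis) from edgeR's quasi-likelihood fit for each transcript (y axis), with 95% intervals, over all 5 libraries (black circles) and without KIKO replicate 2 (purple squares). Dotted lines mark the threshold of 0.75 in either direction, and *Il6* did not pass the filter without KIKO replicate 2. All 10 black intervals include 0, and without that library the intervals of *Il1b* and *Tnfaip3* lie below 0.

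The genotypes overlapped for 7 members. All KIKO libraries lay above WT for *Tnf*, as they did for 8.2% of genes tested. They all lay below WT for *Il1a* and *Il6*, as they did for 8.51%. KIKO replicate 2 was the highest library for 7 of the 10 (*Il1b*, *Ccl2*, *Ccl3*, *Ccl4*, *Nfkbia*, *Nfkbiz* and *Tnfaip3*), as it was for 33.9% of all genes tested. KIKO replicate 3 was the lowest library for 7 of the 10 (*Il1a*, *Il1b*, *Il6*, *Ccl2*, *Ccl4*, *Nfkbia* and *Tnfaip3*), as it was for 17% of all genes tested. The variance within genotypes was between 48 times (*Ccl2*) and 169 times (*Ccl4*) that of counting alone for these 7 transcripts of replicate 2, compared with 2.93 for *Il1a*, 1.02 for *Il6* and 0.412 for *Tnf*. For the first group, the spread between libraries was thus far beyond counting error. Sums over the 7 ligand transcripts were 966 and 952 normalized CPM in WT and 920, 2163 and 683 in KIKO. Sums over the 3 feedback transcripts were 1123 and 1548 in WT and 1055, 1916 and 1002 in KIKO.

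Microglia markers moved with the members in KIKO replicate 2, where 12 of the 15 were highest. Among markers of other cells, 4 of 6 for oligodendrocytes were highest there (sum 18860, compared with 4540 to 11840 in the other libraries). So were 4 of 6 for the choroid plexus (15610, compared with 7879 to 13940). For endothelial and mural cells 5 of 9 were, but their sum of 1148 was close to the 1097 of WT replicate 2. None of the 6 markers of granule neurons and 0 of 5 of Purkinje neurons were. Of all genes tested, 33.9% were highest in KIKO replicate 2. The summed level of the microglia markers there was 12720 normalized CPM, compared with 5013 to 7241 in the other libraries, and the 7 ligand transcripts summed to 2163, compared with 683 to 966. The part of the cell mixture in the members' levels was not tested.

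Leaving out KIKO replicate 2 turned the direction of 4 members. Without it, 10373 genes were tested and 6.45% of them met the thresholds of the study, 3.51% in the lower direction. Of the 9 members that could be tested, 6 were lower in KIKO, as were 50.9% of all genes tested at any size. *Tnfaip3* was the 1 member called, with a log2 fold change of −0.83 (standard error 0.39, 95% interval −1.62 to −0.039) and an adjusted p of 0.578 in edgeR's quasi-likelihood test. Against the WT mean, *Tnfaip3* was at −0.49 on the log2 scale in KIKO replicate 1 and at −1.31 in KIKO replicate 3, where it had 22 counts. *Il1b* was at −0.58 on the log2 scale (standard error 0.27) with an adjusted p of 0.582, a size under the threshold. *Ccl4* had −0.47 (standard error 0.27), *Il1a* −0.46 (standard error 0.35), *Nfkbia* −0.44 (standard error 0.26) and *Ccl2* −0.41 (standard error 0.43). *Ccl3* and *Nfkbiz* had 0.05 each and *Tnf* 0.15. The 95% intervals of *Ccl4*, *Il1a*, *Nfkbia*, *Ccl2*, *Ccl3*, *Nfkbiz* and *Tnf* all include 0. The signs of *Il1b*, *Ccl2*, *Ccl4* and *Tnfaip3* were thus set by 1 library.

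The profiles of the members over the 5 libraries were compared with each other. Those of *Ccl3* and *Nfkbia*, the ligand and the feedback member of the highest mean level, were also compared with every gene tested. The measure was the mean absolute difference of log2 CPM after centring on the gene's own mean. The comparison is a description over 5 libraries of 2 genotypes, and 1 library gives most of the contrast. Among the members, *Il1b* and *Ccl4* were nearest to each other (0.144), followed by *Ccl3* and *Nfkbiz* (0.149), *Ccl2* and *Ccl4* (0.187) and *Ccl2* and *Tnfaip3* (0.211). *Il6* differed from each other member by at least 0.663. The 5 genes nearest to *Ccl3* were *Cep19* (0.0532), *Rpl22* (0.0638), *Traf1* (0.0749), *Ddx39b* (0.0785) and *Add1* (0.0812). Among those nearest to *Nfkbia* were *Dnajb2* (0.032), *Atp6v1a* (0.0443), *Ddr1* (0.0461) and *Gtf2i* (0.0482). The ribosomal protein gene *Rpl22* was thus nearer to *Ccl3* than any other member was.

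**Figure D3:**
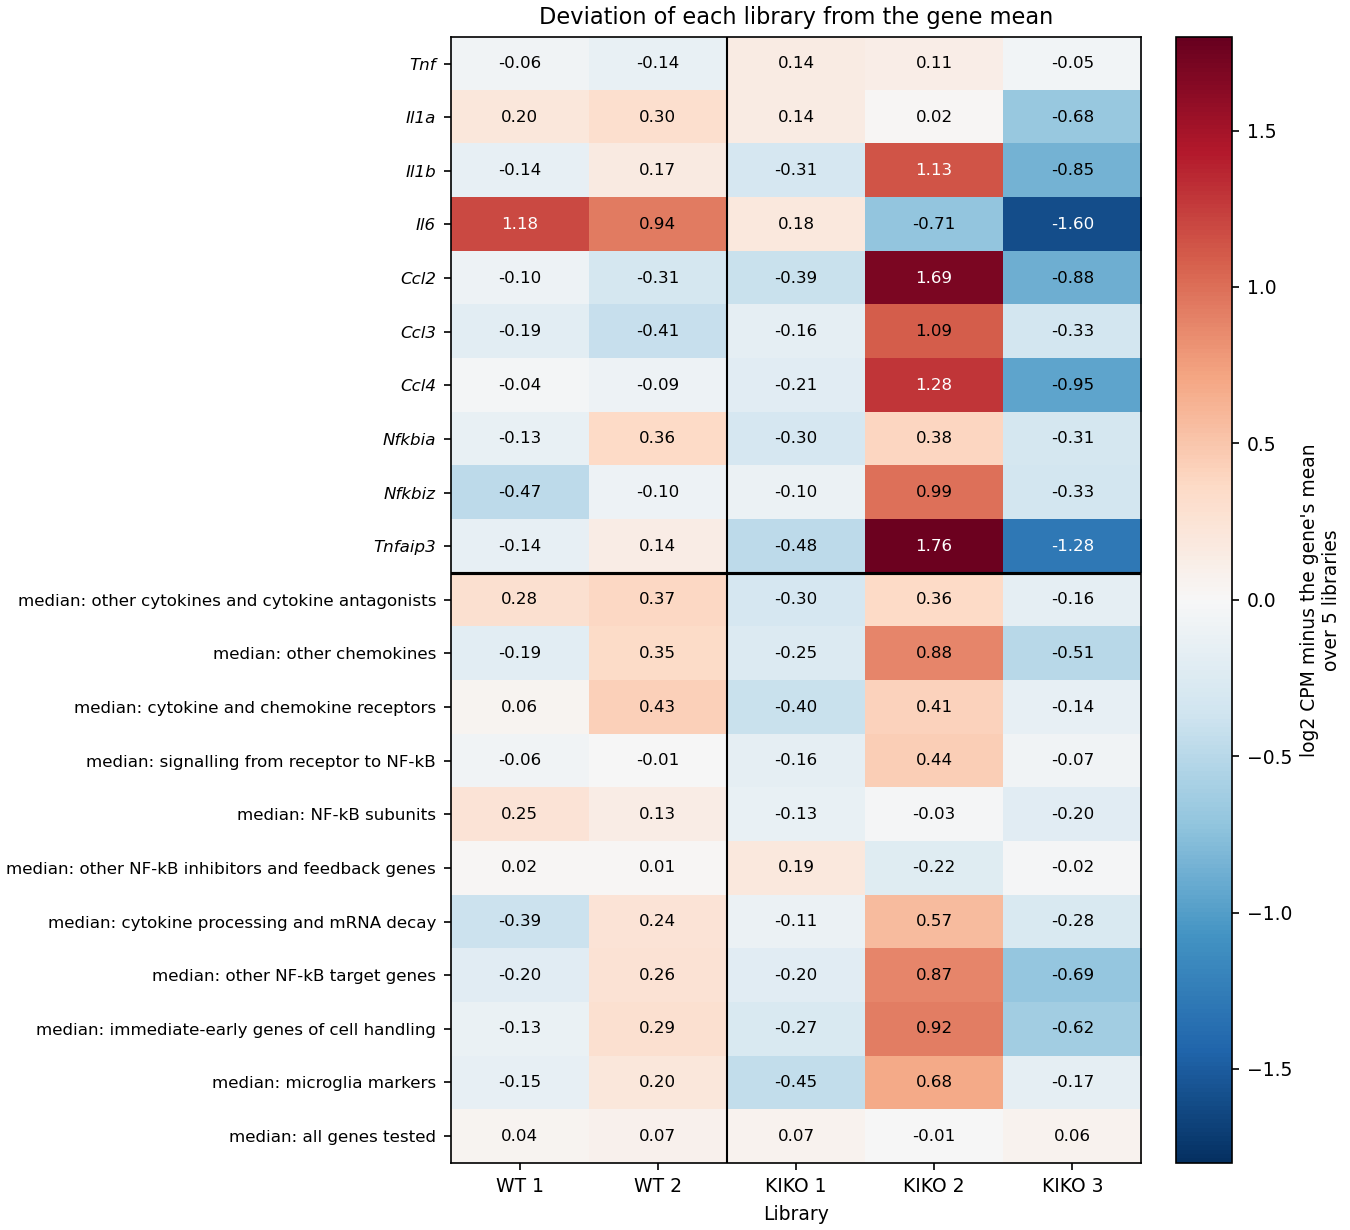
Log2 CPM minus the gene's mean over 5 libraries (colour and printed value) in each library (columns) for the 10 transcripts (upper rows) and as the median over the tested genes of each pathway list, of the microglia markers and of all genes tested (lower rows). The median over the members' own rows is 1.04 in KIKO replicate 2 and −0.76 in KIKO replicate 3, whereas the medians of all genes tested lie near 0 in every library.

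The other genes of the pathway were taken from 9 lists with 152 genes, of which 127 passed the filter. Over all 5 libraries, 1 of the 127 was called, *Fosb*, a subunit of the AP-1 factor and an early response gene. It fell from 300 and 295 normalized CPM in WT to 162, 161 and 120 in KIKO, a change of −1.01 on the log2 scale (standard error 0.35) whose adjusted p was 1 in edgeR's quasi-likelihood test. Its KIKO values were close together and all below WT. It was not called without WT replicate 1 or 2, without KIKO replicate 3 or under the replicate block. The other 126 did not pass, and the median log2 fold changes of the lists lay between −0.449 and 0.31.

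Among the other cytokines and their antagonists, 3 of 10 tested genes had a positive and 7 a negative fold change, and 0 were called (2 positive and 8 negative without KIKO replicate 2). *Csf1*, the growth factor that maintains microglia, had 157 and 175 normalized CPM in WT and 88.3, 199 and 52.8 in KIKO, and *Osm*, an IL-6 family cytokine, 61.8 and 86.5 in WT and 46.5, 126 and 18.3 in KIKO. Both had the pattern of *Tnfaip3*, with replicate 2 above WT and the other KIKO libraries below. Of 15 other chemokines, 9 had a positive and 6 a negative fold change, and 10 were highest in KIKO replicate 2. Without that library, the balance turned to 1 positive and 12 negative, and the median went from 0.241 to −0.631. *Cxcl2*, a neutrophil attractant, had 356 and 592 in WT and 342, 1489 and 196 in KIKO. *Cxcl1*, which acts through the same receptor, went the other way in replicate 2, with 44.8 and 60.7 in WT and 38.6, 5.41 and 12.2 in KIKO, and its log2 fold change of −1.48 (standard error 0.73) missed the threshold with a p of 0.0754 in edgeR's quasi-likelihood test before adjustment.

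Among 13 receptors, 8 had a positive and 5 a negative fold change, and without KIKO replicate 2 these were 2 and 10. *Cx3cr1*, the fractalkine receptor of microglia, had 925 and 894 normalized CPM in WT and 651, 1184 and 876 in KIKO. In the 21 genes that carry the signal from receptor to NF-kB, 14 had a positive and 7 a negative fold change with a median of 0.148, which turned to 6, 15 and −0.204 without KIKO replicate 2. *Ikbkb*, the kinase that marks IkBalpha, had 167 and 192 in WT and 156, 113 and 173 in KIKO, and *Chuk*, its partner, 68.7 and 81.9 in WT and 81.2, 150 and 58.9 in KIKO.

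Of the 5 NF-kB subunit genes, 0 were highest in KIKO replicate 2, compared with 33.9% of all genes tested. *Rela* had 86.7 and 104 normalized CPM in WT and 78.1, 74.2 and 96.4 in KIKO, *Rel* 95.6 and 56.9 in WT and 74.1, 93.5 and 57.8 in KIKO, and *Nfkb1* 137 and 141 in WT and 176, 155 and 135 in KIKO. *Rela* was lowest in replicate 2, and *Rel* and *Nfkb1* lay there within the range of the other libraries. Of the 5 subunits, 1 had a positive and 4 a negative fold change, with a median of −0.203, and without KIKO replicate 2 these values were 1, 4 and −0.197. The median deviation of the subunits in KIKO replicate 2 was −0.03 on the log2 scale, close to the −0.01 of all genes tested. That of the members was 1.04. The difference between subunits and members was not tested, as replicate 2 is 1 library.

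Of the 18 other inhibitors and feedback genes, 10 had a positive and 8 a negative fold change, compared with 11 and 6 without KIKO replicate 2. *Cyld*, a deubiquitinase that works beside A20, had 149 and 149 normalized CPM in WT and 109, 120 and 127 in KIKO, a log2 fold change of −0.33 (standard error 0.33). *Socs3*, an inhibitor of cytokine receptor signalling, had 153 and 98.6 in WT and 109, 322 and 49.7 in KIKO. The median deviation of the list in KIKO replicate 2 was −0.22, opposite in sign to that of the members, but the list was split. Of the 18 genes, 7, *Socs3* among them, were highest there, compared with 33.9% of all genes tested. *Tax1bp1* was lowest there, with 176.3 and 158.5 in WT and 190.1, 99.7 and 163.4 in KIKO. Of 13 genes for cytokine processing and mRNA decay, 7 had a positive and 6 a negative fold change, compared with 5 and 8 without that library. *Nlrp3*, the inflammasome sensor upstream of IL-1beta cleavage, had 37.9 and 59.9 in WT and 21.3, 233 and 17.3 in KIKO, and *Zfp36*, which encodes tristetraprolin, had 127 and 142 in WT and 119, 301 and 81.2 in KIKO. Both followed *Il1b* in having replicate 2 highest and replicate 3 lowest. Of the 13, 7 were highest in KIKO replicate 2 and 5 were lowest in KIKO replicate 3, compared with 33.9% and 17% of all genes tested. *Rc3h2* went the other way, with 190.3 and 213.1 in WT and 218.5, 76.5 and 244.6 in KIKO.

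Of 13 other NF-kB target genes, 7 had a positive and 6 a negative fold change, and without KIKO replicate 2 the tally turned to 1 and 12 with a median of −0.245. *Cd83*, an activation antigen, had 630 and 784 normalized CPM in WT and 586, 828 and 507 in KIKO. *Ier3*, an early response gene, had 153 and 162 in WT and 195, 164 and 297 in KIKO, and was thus highest in the library in which most members were lowest. The 19 immediate-early genes, which respond to the handling of cells as well as to ligands, had 10 positive and 9 negative fold changes with a median of 0.00642, and without KIKO replicate 2 they had 2 positive and 17 negative ones with a median of −0.578. Of them, 14 were highest in KIKO replicate 2 and 15 were lowest in KIKO replicate 3, and their median deviations of 0.92 and −0.62 in these libraries lay beside the members' 1.04 and −0.76. *Egr1* had 528 and 981 in WT and 454, 1256 and 418 in KIKO. The part of cell handling in the members' levels was not tested.

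Without KIKO replicate 2, 13 of 123 tested genes of the lists (10.6%) met the thresholds of the study, all 13 lower in KIKO, compared with 6.45% of all genes tested in the same fit and 3.51% in the lower direction. Among them were *Csf1*, *Osm*, *Cxcl1*, *Cxcl2*, *Cxcl12*, *Cxcr4*, *Nlrp3*, *Ptgs2*, *Bcl2a1b*, *Fosb*, *Egr1* and *Nr4a1*. The log2 fold change was −1.23 (standard error 0.30) for *Csf1*, −1.35 (standard error 0.43) for *Nlrp3* and −0.82 (standard error 0.29) for *Cxcl2*, and the lowest adjusted p of the 13 was 0.209 in edgeR's quasi-likelihood test. Of the 13, *Fosb* alone was also called with all libraries. *Bcl2a1b* has near-identical copies, so its counts are uncertain. The microglia markers had a median log2 fold change of −0.363 in the same fit, with 13 of 15 lower, and the members one of −0.442. Beside these, markers of the choroid plexus were lower as well, with a median of −0.84 and 6 of 6 lower, as were 5 of 6 of oligodendrocytes (median −0.497). Those of Purkinje neurons went the other way, with 5 of 5 higher and a median of 0.702.

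**Figure D4:**
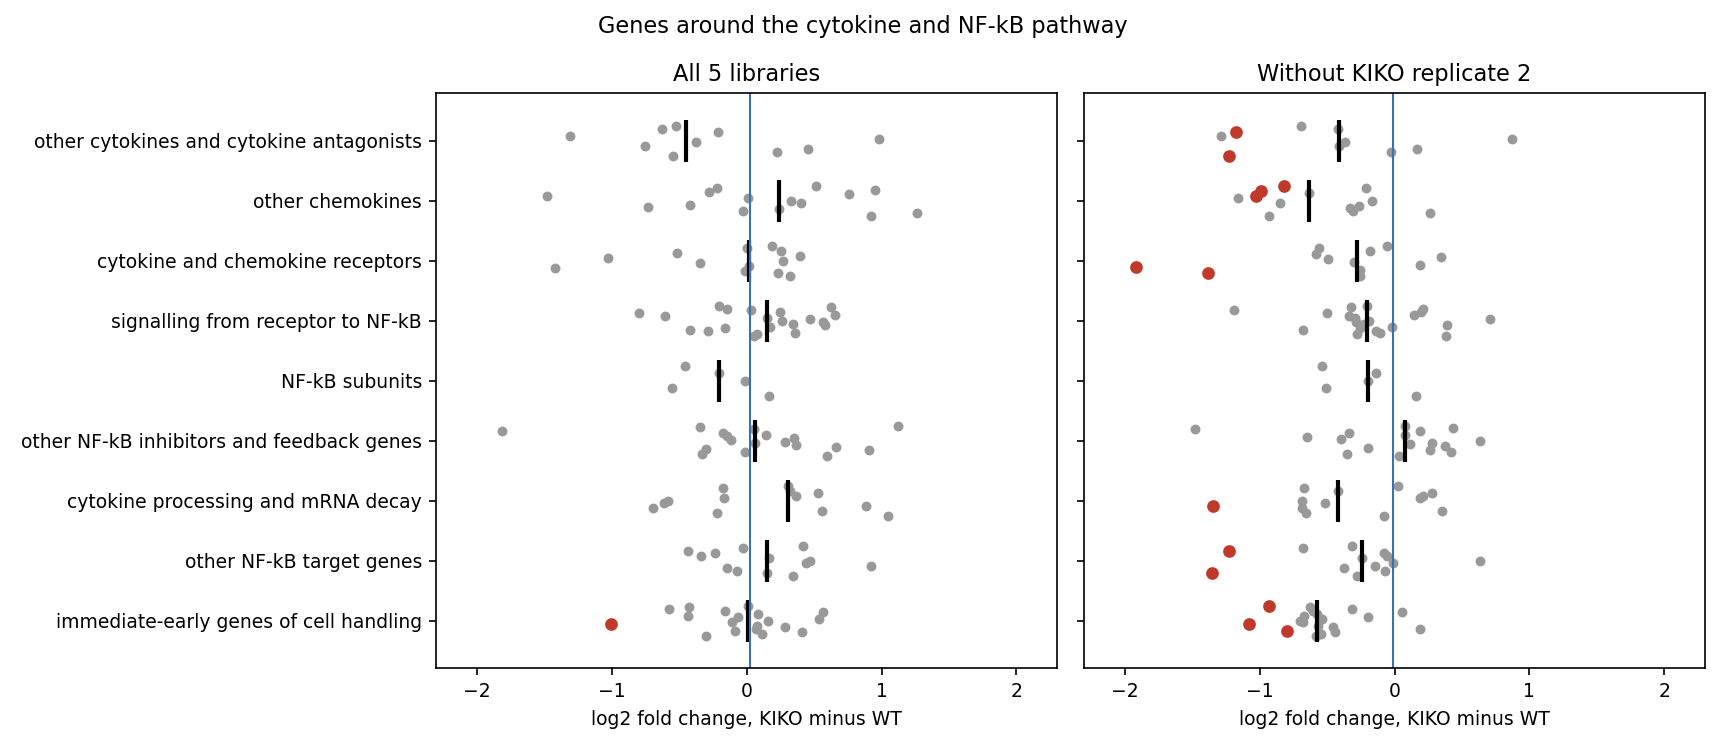
Log2 fold change of KIKO minus WT (x axis) of each tested gene of the 9 pathway lists (y axis), over all 5 libraries (left) and without KIKO replicate 2 (right). Larger red points met the thresholds of the study, black bars are list medians, and the blue line is the median of all genes tested. 1 gene is red on the left and 13 on the right, all below 0.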

How the data were processed

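RNA of WT and KIKO cerebellum was sequenced in bulk. The authors' pipeline used Trimmomatic for trimming, HISAT2 for alignment to mm10, featureCounts for counting per gene and DESeq2 for normalization. The annotation, strand setting and handling of multi-mapping reads are not given in the sources used here. The methods name a Zymo kit and a digital mRNA sequencing service, the labels a lipid tissue kit and a stranded Illumina kit. The authors deposited raw counts as whole numbers and log2 values, which equal log2(count / DESeq2 size factor + 1). Columns were matched to samples by name. As no column was named for the WT sample numbered 3, it was not analysed here, and the comparison was 2 against 3. Another 2 columns of per-sample values were not used, as their names (KIKO and butyrate) match no label.

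Gene names came from GENCODE M21 for 30934 of 31053 identifiers (99.6%). The deposited counts entered edgeR 4.0.16 (R 4.3.3). Its filterByExpr (minimum count 10, minimum total 15) kept 10889 genes, TMM factors were between 0.9712 and 1.057, and KIKO was compared with WT by the two-sided quasi-likelihood test (glmQLFit, glmQLFTest), adjusted by Benjamini-Hochberg over all genes tested. Deviations used log2(CPM + 0.5). Alternatives were DESeq2 1.42.0, limma 3.58.1 with trend on the deposited log2 values, scaling by RLE or by library size, filters of at least 1 count in all and of at least 10 counts in every sample, the replicate number as a block, and each library left out. The scripts were tested on simulated data. The labels do not say that libraries came from separate animals, so p-values measure the spread between these samples, and an exact permutation test of 2 against 3 cannot go below 0.1.

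The members and lists were chosen with earlier results of these data known. Of each list, the 3 tested genes with the highest mean level and those called could be named, in addition to the members and the 5 genes nearest in profile to *Ccl3* and *Nfkbia*. Most list genes called without KIKO replicate 2 are named as well, a choice made after their values were seen. The AU-rich motifs were chosen after the data were seen. Some results are not reported here.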

Additional observations from a re-analysis of the deposited data

How the results depend on the processing

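Of 117 fold changes of members under alternatives, 111 kept their direction and stayed outside the thresholds, and 6 reversed. With limma, *Il1b* was at −0.011, *Tnfaip3* at 0.016, *Ccl2* at 0.35 and *Ccl4* at 0.12. With each library left out in turn, log2 fold changes ranged from −0.58 to 0.56 for *Il1b*, −0.41 to 1.21 for *Ccl2*, −0.47 to 0.79 for *Ccl4*, −0.83 to 1.03 for *Tnfaip3* and −0.44 to 0.0757 for *Nfkbia*, the last positive without WT replicate 2. *Tnf*, *Ccl3* and *Nfkbiz* were positive, and *Il1a* and *Il6* negative, wherever they could be tested. *Il6* had no value without KIKO replicate 1 or 2 or with at least 10 counts in every sample. The members' lowest adjusted p under any alternative was 0.578 (*Tnfaip3*). Members called numbered 0, and 0 to 1 with a library left out. Over all genes, 131 were called (78 higher, 53 lower), 383 (256 higher) with all genes of at least 1 count, 56 to 669 with a library left out (669 without KIKO replicate 2, 305 higher and 364 lower), 137 (94 higher) with library size alone and 136 (96 higher) with DESeq2. An adjusted p under 0.05 was reached by 0 genes, by 1 with the looser filter and by 0 to 5 with a library left out. Genes of the pathway lists called numbered 1, 4 with the looser filter (2 in each direction), 2 with limma and 0 to 13 with a library left out. Leaving out a WT library leaves 1, which is assumed to vary like KIKO. With the replicate number as a block (replicate block), 271 genes were called (109 higher, 162 lower), 0 members and 0 genes of the pathway lists, and no member reversed. Deviations from group means correlated across genes with r of 0.16 and 0.208 between same-numbered libraries and 0.191 between WT replicate 1 and KIKO replicate 3. With 2 pairs, the libraries share only a number. Depth limits *Il6*, with 31 counts in all. The causes of these changes were not tested, beyond the library or genes that each setting leaves out.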
